A study of Mus musculus with 6 samples.

Results

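The 10 genes described here encode AP-1 transcription factors and 2 partners of the immediate early response: Fos, Fosb, Fosl1 and Fosl2 of the FOS family, Jun, Junb and Jund of the JUN family, the related factor Atf3, the zinc finger factor Egr1 and the phosphatase Dusp1. They were taken by symbol from the tables of whole mouse uteri, each with 21936 genes, and each symbol matched 1 gene. RNA was sequenced from 3 libraries labelled Mettl3 d/d and 3 labelled Mettl3 f/f. All came from females mated at 6 to 8 weeks of age with fertile males and killed on gestational day 4, with the vaginal plug counted as day 1. Mettl3 encodes the methyltransferase that writes N6-methyladenosine on RNA, and f/f and d/d are the usual notation for a floxed and a deleted allele. No source used here gives the Cre driver, the deleted exons or whether each library is 1 animal. The p-values therefore cover only how far these libraries spread, which may be technical.

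FOS proteins bind DNA as pairs with JUN proteins, whereas JUN proteins can also pair with each other, and these pairs are called AP-1. Growth factors, cytokines and stress switch on Fos, Fosb, Jun, Junb, Atf3, Egr1 and Dusp1 within minutes without new protein synthesis, through the MAP kinases and the factors SRF, ELK and CREB, and their transcripts are short-lived. In the rodent uterus estrogen is known to induce Fos and Egr1, and around day 4 the lining becomes ready for implantation.

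None of the AP-1 and immediate early genes passed the test between the genotypes. Of the 10 genes, 8 had enough signal to be tested and 0 were called higher or lower in labelled d/d uteri at a limma adjusted p under 0.05, where 7.3% of all 12979 tested genes were called and 3.49% were called higher. At an unadjusted p under 0.05 Fosl2 and Junb stood higher in labelled d/d uteri, against 13.1% of all tested genes that were higher at that level. In Fosl2, Junb and Jun all 3 labelled d/d libraries lay above all 3 f/f libraries, which 18.1% of the tested genes did, and 35.9% of the tested genes did not overlap in 1 direction or the other. The log2 difference was above 0 in 6 of the 8 genes, as in 51.9% of all tested genes, with a median of 0.38 against 0.02 over all. Fos, Fosb, Atf3, Egr1 and Dusp1 overlapped between the genotypes. Fos, Junb, Atf3 and Dusp1 each had their highest value in d/d replicate 2, which is the highest library for 21.1% of all tested genes. Fosl2 peaked in d/d replicate 3 (29.4% of all) and Jun in d/d replicate 1 (13.8%), while Fosb and Egr1 peaked in f/f replicate 3 (14.2%). None of the 8 peaked in f/f replicate 1 or 2, where 10.3% and 11.1% of all tested genes did.

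The promoters of those 4 genes with their peak in d/d replicate 2 are shown because the genes shared that library pattern. The sequences are from RefSeq (GRCm38.p6), whose promoter table held 8 of the 10 genes, with Fosl1 and Egr1 not used here. Each is the 250 bases before a start annotated by RefSeq, read 5′ to 3′ along the gene. That start can differ from the end of the GENCODE gene whose position is given below. The windows of Atf3, Dusp1 and Fosl2 lie inside their GENCODE genes, and that of Jund ends well before the start of its GENCODE gene. Capitals mark TGACG on either strand (CGTCA as read here), the core of the cyclic AMP response element that CREB and ATF proteins bind, and the full element TGACGTCA where it is present.
Fos, plus strand, chr12:85473640-85473889: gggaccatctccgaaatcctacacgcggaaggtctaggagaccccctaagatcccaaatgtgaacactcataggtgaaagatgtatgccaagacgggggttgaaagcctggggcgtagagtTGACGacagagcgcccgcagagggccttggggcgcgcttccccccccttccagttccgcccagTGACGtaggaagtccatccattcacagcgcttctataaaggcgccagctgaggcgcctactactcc
Junb, minus strand, chr8:84978749-84978998: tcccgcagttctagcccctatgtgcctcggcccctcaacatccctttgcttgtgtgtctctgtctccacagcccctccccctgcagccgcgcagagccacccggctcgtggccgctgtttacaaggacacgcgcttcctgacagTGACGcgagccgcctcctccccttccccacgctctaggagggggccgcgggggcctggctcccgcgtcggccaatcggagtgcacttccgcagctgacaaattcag
Atf3, minus strand, chr1:191183334-191183583: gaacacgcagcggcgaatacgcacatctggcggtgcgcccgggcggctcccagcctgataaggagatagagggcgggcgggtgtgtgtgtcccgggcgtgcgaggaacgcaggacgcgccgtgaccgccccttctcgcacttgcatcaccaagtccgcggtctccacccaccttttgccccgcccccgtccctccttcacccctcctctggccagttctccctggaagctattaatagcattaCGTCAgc
Dusp1, minus strand, chr17:26508473-26508722: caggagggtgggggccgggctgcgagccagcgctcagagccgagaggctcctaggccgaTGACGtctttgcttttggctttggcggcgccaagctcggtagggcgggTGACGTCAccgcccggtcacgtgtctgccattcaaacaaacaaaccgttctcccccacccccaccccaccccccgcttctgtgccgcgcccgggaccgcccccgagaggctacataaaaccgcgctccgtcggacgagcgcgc

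TGACG was found on either strand in 5 of the 8 promoters, those of the 4 genes above and of Fosb. It was in 17.8% of all 32851 promoter windows of this length. That share was not matched for the G and C content, which was 58.4% to 68.4% in the 4 windows shown. Fosb peaked in f/f replicate 3, and any tie of TGACG to the library pattern was not tested. In Fos TGACG lay 66 and 129 bases before the start, counted to its first base, and in Junb 106 bases before. Dusp1 was the 1 gene of the 8 with the full TGACGTCA, which overlaps 2 of its TGACG matches and was in 1.55% of all windows. The AP-1 element TGACTCA, searched on both strands, was in 0 of the 8 and in 4.46% of all windows. The CArG box, which SRF binds, was likewise in 0 of the 8 against 1.47%. Bases farther from the start were not searched and Egr1 had no window, so a 0 does not show that a gene lacks the element. The EGR element GCGNGGGCG was in Fosl2 and Fosb and in 4.70% of all windows. A match of letters is a description and not a measured binding site.

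Mettl3 itself was at 42.9, 30.1 and 46.5 FPKM in d/d replicates 1, 2 and 3, against 30.3, 29.8 and 26.3 FPKM in f/f libraries. FPKM counts fragments per length of gene and per mapped fragments of the library, so levels can be compared between genes. Values by library stand in the order of replicates 1, 2 and 3. The labelled d/d libraries were not lower (limma adjusted p = 0.202). Because exons outside the deleted part may add to this value, it checks nothing about the labels, and every direction given here rests on the labels. The libraries summed to 554199 to 625491 FPKM in labelled d/d and 534944 to 570576 in f/f, and their depth in reads is unknown. Most tested markers of neutrophils, macrophages and lymphocytes were highest in d/d replicate 2, as were 21.1% of all tested genes, and results are also given without it. The labelled d/d libraries differed more among themselves, with a median SD per gene of 0.30 on the log2 scale, against 0.13 among f/f libraries. All listed markers of epithelium, stroma and smooth muscle reached the level for testing, a value of 1 FPKM in 3 libraries. Of the gland markers, Prss28 and Prss29 did not reach the level for testing. Foxa2 was at 10.6, 4.24 and 2.00 FPKM in labelled d/d and 4.76, 7.73 and 18.4 FPKM in f/f libraries. Cxcl15 was at 49.1, 7.87 and 0 FPKM in labelled d/d and 15.5, 20.2 and 34.6 FPKM in f/f libraries. Neither passed (limma adjusted p = 0.451 and 0.483).

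**Figure D1:**
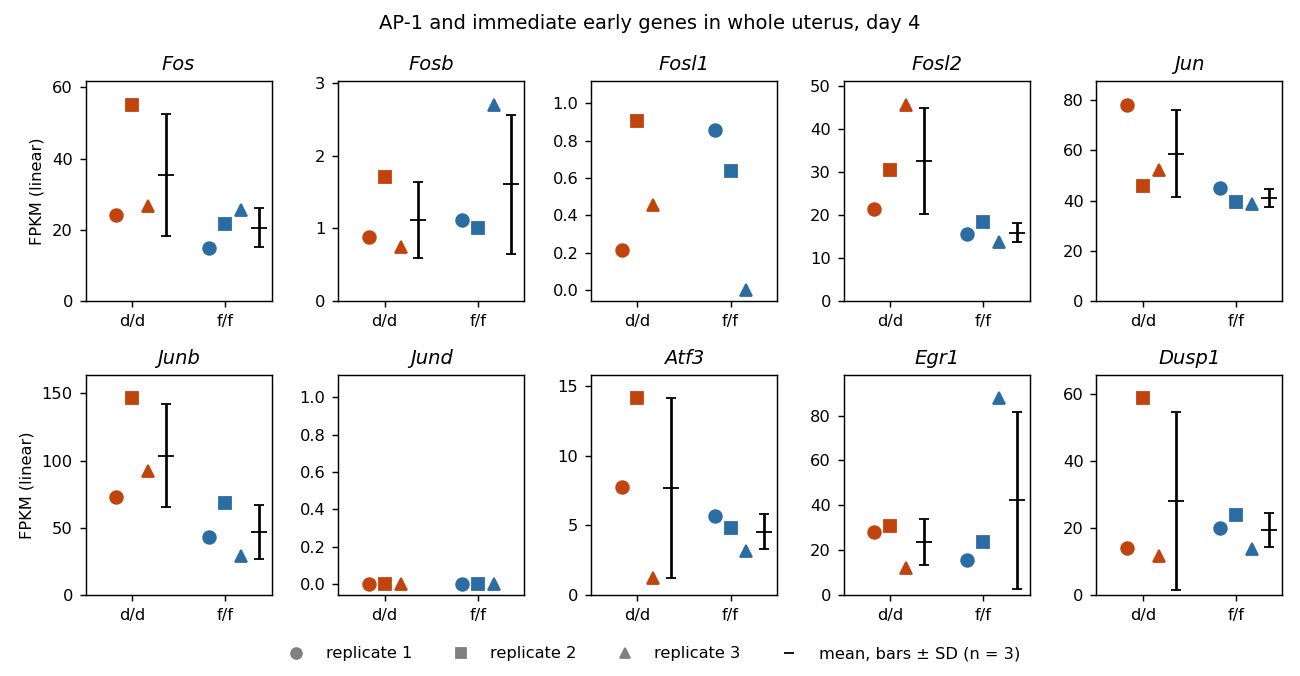
FPKM of the 10 genes in each library (linear axes, 1 panel per gene, labelled d/d left and f/f right, markers by replicate number, black bars mean ± SD, n = 3). Fosl2, Jun and Junb lie higher in all labelled d/d libraries than in any f/f library, while Fos, Junb, Atf3 and Dusp1 peak in d/d replicate 2. Fosl1 and Jund have no mean because of values listed at 0.

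Among the FOS family, Fosl2 had the most separated values. Fosl2 (ENSMUSG00000029135, chromosome 5, 32135801 to 32157842, plus strand, GRCm38, 4 exons) encodes FRA-2, a FOS protein without the strong activation domain of FOS. It was at 21.5, 30.6 and 45.7 FPKM in d/d replicates 1, 2 and 3, against 15.7, 18.4 and 13.9 FPKM in f/f libraries. The lowest labelled d/d library thus stood above the highest f/f library, and d/d replicate 3 was the highest. The means were 32.6 ± 12.3 FPKM in labelled d/d and 16.0 ± 2.29 FPKM in f/f libraries (SD, n = 3 each), a ratio of 2.04. On the log2(FPKM + 1) scale, which understates changes of low genes, the difference was 0.93 (SE 0.28, 95% interval 0.26 to 1.60, limma p = 0.0145, adjusted p = 0.0960, exact two-sided permutation p = 0.1). A p of 0.1 is the smallest possible here with 3 libraries in each genotype. With d/d replicate 1 left out the difference was 1.19 and passed (limma adjusted p = 0.0383, against a range of 0.0383 to 0.268 over 13 alternatives). That was the 1 call among the 8 tested genes in that fit, where 10.2% of all tested genes were called and 4.4% were called higher.

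Fos (ENSMUSG00000021250, chromosome 12, 85473890 to 85477273, plus strand, 4 exons), the founding member of the family, was at 24.2, 55.1 and 26.8 FPKM in d/d replicates 1, 2 and 3. In f/f libraries it was at 14.8, 21.6 and 25.4 FPKM. The genotypes overlapped, since d/d replicate 1 lay under f/f replicate 3, and d/d replicate 2 stood alone above all other libraries. The means were 35.4 ± 17.1 FPKM in labelled d/d and 20.6 ± 5.37 FPKM in f/f libraries (SD, n = 3 each). The log2 difference was 0.68 (SE 0.35, limma adjusted p = 0.272, 95% interval -0.17 to 1.54, exact permutation p = 0.2). Without d/d replicate 2 it was 0.32 (limma adjusted p = 0.420, range 0.184 to 0.571 over 13 alternatives).

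Fosb and Fosl1 were near the lower limit of what was measured. Fosb (chromosome 7, 19302696 to 19310051, minus strand, 4 exons), a FOS relative with a short splice form that persists in cells, was at 0.882, 1.71 and 0.750 FPKM in d/d replicates 1, 2 and 3, against 1.11, 1.00 and 2.70 FPKM in f/f libraries. Its highest value stood in f/f replicate 3 and the groups overlapped, with a log2 difference of -0.27 (limma adjusted p = 0.623, 95% interval -1.03 to 0.49, exact permutation p = 0.5). Without f/f replicate 3 that difference was 0.01 (limma adjusted p = 0.986). Fosl1 (chromosome 19, 5447547 to 5455946, plus strand, 4 exons), which encodes FRA-1, was at 0.215, 0.907 and 0.458 FPKM in d/d replicates 1, 2 and 3 and at 0.858 and 0.638 FPKM in the first pair of f/f libraries. In f/f replicate 3 it was listed at 0, and it stayed under the level for testing. Fosl1 overlaps Ccdc85b on the other strand by 2767 bp. The overlap is of whole gene spans, introns included. No source used here says whether strand was used, so fragments of any shared exons cannot be told apart there.

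In the JUN family, Junb and Jun had overlapping levels, and Jun stood above Junb in d/d replicate 1 and in f/f replicates 1 and 3. Junb (ENSMUSG00000052837, chromosome 8, 84974484 to 84978718, minus strand, 1 exon) encodes a JUN protein that can oppose JUN at some targets. It was at 72.9, 146 and 92.0 FPKM in d/d replicates 1, 2 and 3, against 43.1, 68.3 and 29.0 FPKM in f/f libraries. The groups did not overlap, although d/d replicate 1 and f/f replicate 2 were close. The means were 104 ± 38.1 FPKM in labelled d/d and 46.8 ± 19.9 FPKM in f/f libraries (SD, n = 3 each), a ratio of 2.22. The log2 difference was 1.15 (SE 0.37, 95% interval 0.25 to 2.06, limma p = 0.0203, adjusted p = 0.114, exact permutation p = 0.1). Its limma adjusted p ranged from 0.0847 to 0.292 over 13 alternatives, so no limma fit called it. Junb overlaps Prdx2 on the other strand by 351 bp.

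Jun (ENSMUSG00000052684, chromosome 4, 95049034 to 95052222, minus strand, 1 exon), the central AP-1 partner and a target of the JNK kinases, was at 78.1, 45.8 and 52.0 FPKM in d/d replicates 1, 2 and 3. In f/f libraries it was at 44.9, 39.4 and 38.6 FPKM. The groups just failed to overlap, and here d/d replicate 1, not replicate 2, was the highest. The means were 58.6 ± 17.1 FPKM in labelled d/d and 41.0 ± 3.44 FPKM in f/f libraries (SD, n = 3 each), with a log2 difference of 0.47 (SE 0.21, limma adjusted p = 0.221, 95% interval -0.04 to 0.99, exact permutation p = 0.1). Without d/d replicate 1 the difference was 0.25 (limma adjusted p = 0.270, range 0.108 to 0.453 over 13 alternatives). Jun overlaps the antisense gene Junos by 689 bp. Jund (chromosome 8, 70698949 to 70700616, plus strand, 1 exon), the JUN gene least tied to stimulation, was listed at 0 in all 6 libraries, as were 19.1% of the rows, so nothing can be said of its level. A value of 0 can be a failed estimate.

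**Figure D2:**
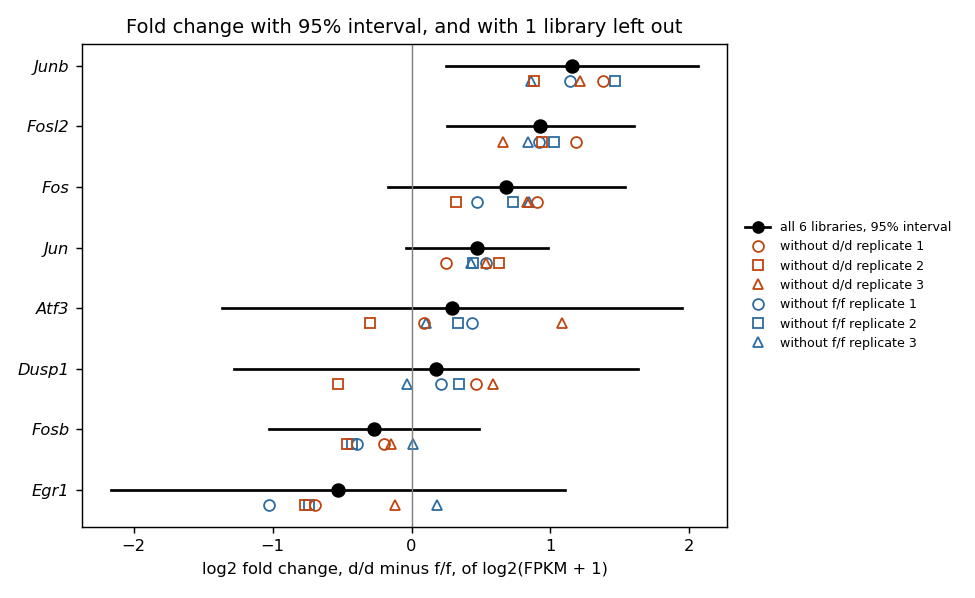
Log2 difference (labelled d/d minus f/f, log2(FPKM + 1) scale) of the 8 tested genes with its 95% interval (black), and with each library left out in turn (open symbols). The intervals of Junb and Fosl2 lie above 0 without adjustment for the number of genes, and those of Atf3, Dusp1, Fosb and Egr1 span 0 with left-out values on both sides of it.

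The 3 genes outside the FOS and JUN families each held 1 genotype with a wide range. Atf3 (chromosome 1, 191170296 to 191218039, minus strand), a stress-induced member of the ATF and CREB family that pairs with JUN proteins, was at 7.77, 14.1 and 1.23 FPKM in d/d replicates 1, 2 and 3, against 5.66, 4.78 and 3.18 FPKM in f/f libraries. The labelled d/d libraries held both the highest and the lowest value, an 11.5-fold range. The log2 difference was 0.29 (limma adjusted p = 0.820, 95% interval -1.37 to 1.95, exact permutation p = 0.8), and it was -0.30 without d/d replicate 2 and 1.08 without d/d replicate 3 (limma adjusted p = 0.773 and 0.1004).

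Egr1 (chromosome 18, 34859823 to 34864984, plus strand, 2 exons), a factor of the early response to growth signals, was at 27.9, 31.0 and 12.0 FPKM in d/d replicates 1, 2 and 3. In f/f libraries it was at 15.5, 23.6 and 87.6 FPKM, and the last value stood far above all other libraries. Within f/f the highest value was 5.64 times the lowest, the widest f/f range among the 8 tested genes. The log2 difference was -0.53 (limma adjusted p = 0.656, 95% interval -2.16 to 1.10, exact permutation p = 0.7), and it turned to 0.18 without f/f replicate 3.

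Dusp1 (chromosome 17, 26505590 to 26562128, minus strand), the phosphatase that switches off MAP kinases in the nucleus, was at 13.9, 58.7 and 11.6 FPKM in d/d replicates 1, 2 and 3, against 20.0, 24.0 and 13.9 FPKM in f/f libraries. Without d/d replicate 2 its log2 difference was -0.53 (limma adjusted p = 0.217), and with all libraries it was 0.17 (95% interval -1.28 to 1.63, limma adjusted p = 0.880, range 0.217 to 0.986 over 13 alternatives, exact permutation p = 0.9). Dusp1 overlaps the sense intronic gene AC122252.1 by 1853 bp and the processed pseudogene AC122252.4 by 227 bp on its own strand. On the other strand it overlaps the processed pseudogene Gm8225 by 956 bp and Ergic1 by 640 bp. These overlaps are of whole gene spans, introns included, so whether exon fragments are shared is unknown.

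Ordered by mean level, Junb, Jun, Fos and Fosl2 came first in labelled d/d libraries (104, 58.6, 35.4 and 32.6 FPKM), followed by Dusp1, Egr1, Atf3, Fosb and Fosl1. Each of these overlapped its neighbour in the order. In f/f libraries the order began with Junb, Egr1 and Jun (46.8, 42.3 and 41.0 FPKM), which overlapped, and Jun lay above Fos in every f/f library. Fos, Dusp1 and Fosl2 overlapped in turn at 20.6, 19.3 and 16.0 FPKM, and Atf3 and Fosb followed at 4.54 and 1.61 FPKM without overlap.

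Summed over Fos, Fosb, Fosl1 and Fosl2, FOS family transcripts came to 46.7, 88.3 and 73.8 FPKM in d/d replicates 1, 2 and 3, against 32.5, 41.7 and 42.0 FPKM in f/f libraries. Those of Jun and Junb came to 151, 192 and 144 FPKM in labelled d/d and to 88.0, 108 and 67.7 FPKM in f/f libraries. Both sums were higher in every labelled d/d library than in any f/f library, a separation that 18.1% of single tested genes also had. Jun and Junb, which make up the JUN sum, were each separated in that way. The ratio of JUN to FOS family transcripts overlapped, at 3.23, 2.18 and 1.95 in labelled d/d and 2.71, 2.58 and 1.61 in f/f libraries. The makeup shifted between libraries of 1 genotype. Jun made up 39.5% of the summed FPKM in d/d replicate 1 and Junb 36.9%, while in d/d replicate 2 Junb made up 52.2% and Jun 16.3%. Fosl2 reached 21.0% in d/d replicate 3 and lay between 10.9% and 13.0% in the other 5 libraries. These sums leave out Jund and are a description with no test.

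**Figure D3:**
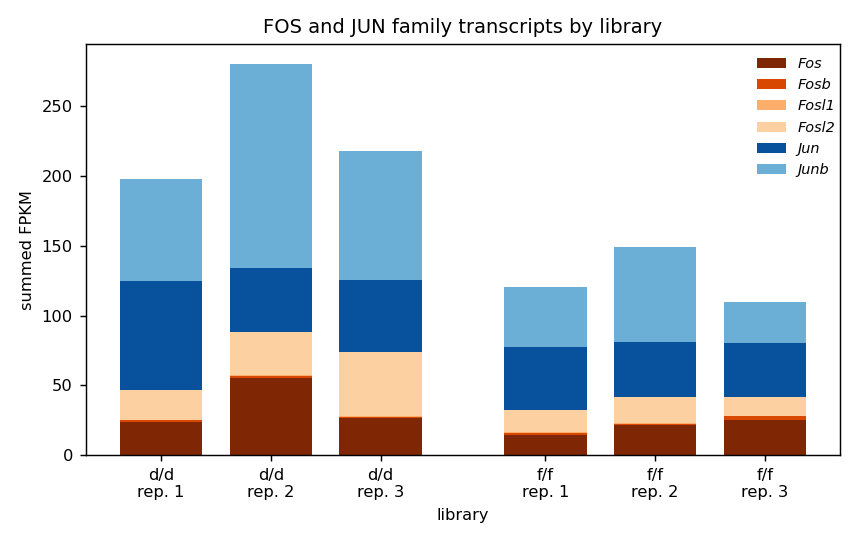
Summed FPKM of Fos, Fosb, Fosl1, Fosl2, Jun and Junb in each library (stacked bars from 0, labelled d/d left, f/f right). The labelled d/d bars reach 198, 280 and 218 FPKM, against 120, 149 and 110 FPKM in f/f libraries, and the Fos and Junb segments are tallest in d/d replicate 2.

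Other genes of the early response also peaked in d/d replicate 2. Of 32 other tested immediate early genes, 15 (46.9%) had their highest value in d/d replicate 2, against 21.1% of all tested genes. The median of these 32 genes relative to their f/f means was 0.01, 0.68 and 0.10 on the log2 scale in d/d replicates 1, 2 and 3, against 0.03, 0.07 and -0.10 in f/f libraries. Among them, named after their values were seen, Socs3, an inhibitor of cytokine signalling, was at 5.67, 44.1 and 17.8 FPKM in d/d replicates 1, 2 and 3 and at 12.2, 13.7 and 5.32 FPKM in f/f libraries. Zfp36, which promotes decay of cytokine mRNAs, was at 38.4, 70.2 and 23.3 FPKM in labelled d/d and 29.2, 41.7 and 24.2 FPKM in f/f libraries. Ier2 did not share the peak, at 26.6, 35.2 and 40.6 FPKM in labelled d/d and 33.2, 36.1 and 58.5 FPKM in f/f libraries. Nr4a1, an orphan nuclear receptor, and Egr1 were both high in f/f replicate 3, where Nr4a1 had its highest value of 24.7 FPKM.

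Markers of several, but not all, white blood cells were highest in the same library. Beside the calls of markers given here, 3.49% of all tested genes passed as higher and 3.81% as lower. The 7 neutrophil markers, of which 4 were tested and 0 passed, summed to 27.6, 1063 and 28.2 FPKM in d/d replicates 1, 2 and 3 and to 4.97 to 10.4 FPKM in f/f libraries, with Elane listed at 0 throughout. Of the sum in d/d replicate 2, S100a8 made up 406 and S100a9 560 FPKM, while Ly6g was highest in d/d replicate 3, at 3.59, 5.80 and 24.96 FPKM in labelled d/d (genes named after their values were seen). The 5 macrophage markers, of which Cd68 passed as higher, summed to 800, 2643 and 335 FPKM in labelled d/d and 239 to 338 FPKM in f/f libraries. The 7 T and B cell markers, of which 3 were tested and 0 passed, summed to 7.05, 66.3 and 2.60 FPKM in labelled d/d and 3.47 to 12.0 FPKM in f/f libraries. The 4 natural killer cell markers, of which 1 passed as lower, summed to 5.73, 13.7 and 1.17 FPKM in labelled d/d and 9.93 to 25.4 FPKM in f/f libraries. In Ncr1, Klrb1c and Prf1 all labelled d/d libraries lay below all f/f libraries, as in 17.8% of all tested genes. Klrk1 overlapped and was highest in d/d replicate 2, at 10.7 FPKM. Stromal markers, of which 0 of 8 passed, summed to 1759, 4265 and 3307 FPKM in labelled d/d and 2769 to 3098 FPKM in f/f libraries. The log2 difference was above 0 in 4 of the 8 and below 0 in 4. In Vim and Pdgfra all labelled d/d libraries lay below all f/f libraries, as in 17.8% of all tested genes. Of these 8, 5 were highest in d/d replicate 2, against 21.1% of all tested genes. Endothelial markers, of which 1 of 6 passed as lower, summed to 167, 240 and 107 FPKM in labelled d/d and 211 to 335 FPKM in f/f libraries. In Cdh5, Kdr, Tek and Emcn all labelled d/d libraries lay below all f/f libraries, as in 17.8% of all tested genes. Pecam1 and Vwf overlapped, and Vwf went the other way with a log2 difference of 0.26. Epithelial markers, of which 3 of 9 passed as higher, summed to 2941, 991 and 4178 FPKM in labelled d/d and 1291 to 1319 FPKM in f/f libraries, and smooth muscle markers, of which 0 of 6 passed, to 1028, 1961 and 4648 FPKM in labelled d/d and 2349 to 5740 FPKM in f/f libraries. The part of these cells in the levels of the AP-1 genes was not tested, and in whole tissue a change in cell number and a change in RNA per cell cannot be told apart. Without d/d replicate 2 the log2 differences were 0.32 for Fos, 0.88 for Junb, 0.94 for Fosl2, 0.63 for Jun, -0.46 for Fosb and -0.77 for Egr1, with limma adjusted p values of 0.420, 0.174, 0.128, 0.108, 0.386 and 0.548 in that order.

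**Figure D4:**
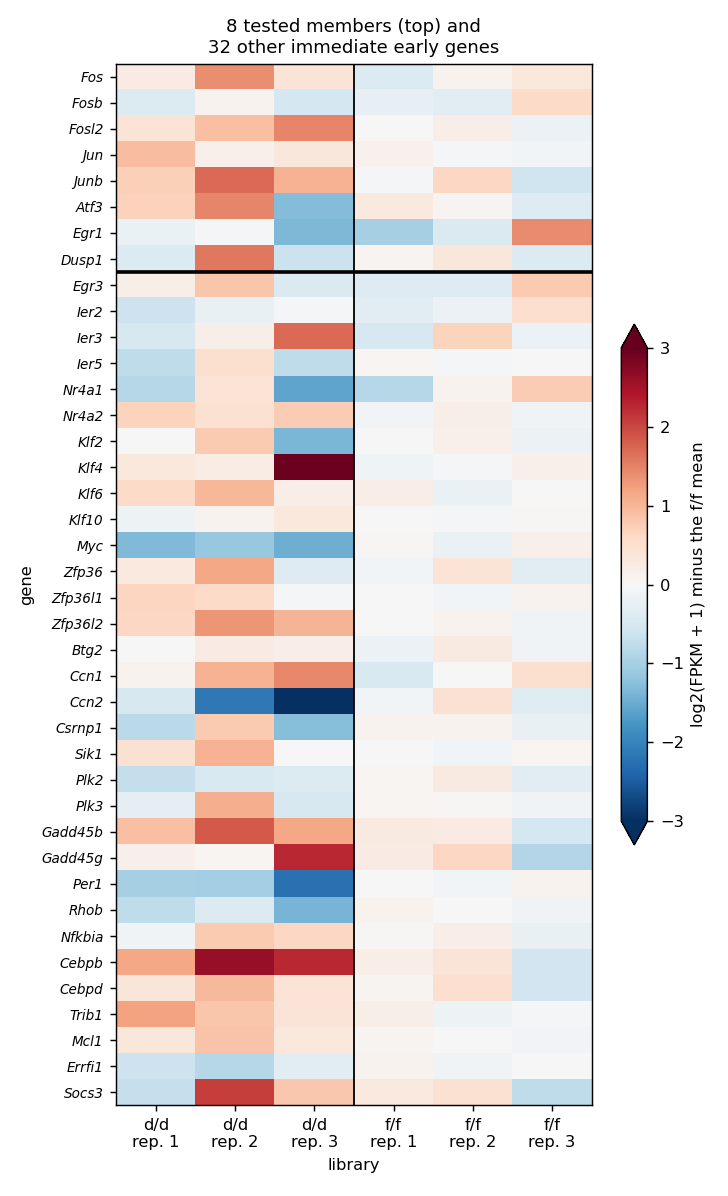
Difference of log2(FPKM + 1) from the f/f mean of each gene (colour, cut off at -3 and 3), for the 8 tested genes above the black line and 32 other immediate early genes under it, in columns by library, labelled d/d left. Fos, Junb, Atf3 and Dusp1 are reddest in d/d replicate 2 and Egr1 in f/f replicate 3, while Myc and Per1 are blue in all labelled d/d libraries.

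Across the wider pathway some single genes passed, at most 12.5% of the tested genes of a list, against 7.3% of all tested genes. Of 37 listed immediate early genes, 32 were tested, 2 were higher and 1 was lower in labelled d/d, and the median log2 difference was 0.37 against 0.02 over all tested genes. Myc, the growth-promoting factor, fell to 28.7, 32.9 and 25.9 FPKM in d/d replicates 1, 2 and 3, against 75.4, 64.2 and 82.1 FPKM in f/f libraries (log2 difference -1.31, SE 0.15, limma adjusted p = 0.0116). Every labelled d/d library stood far under every f/f library. Zfp36l2, a relative of Zfp36 that also promotes mRNA decay, rose to 49.6 ± 12.3 FPKM, against 24.0 ± 1.85 FPKM in f/f libraries (SD, n = 3 each, limma adjusted p = 0.0384). Cebpb, a leucine zipper factor needed for decidualization, rose to 49.4, 137 and 106 FPKM, against 24.8, 28.1 and 13.9 FPKM in f/f libraries (log2 difference 2.02, limma adjusted p = 0.0454).

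Of the genes that did not pass, Per1, a clock gene, averaged 6.11 ± 2.89 FPKM in labelled d/d and 16.7 ± 1.22 FPKM in f/f libraries (limma adjusted p = 0.0631). Gadd45b, a stress gene, averaged 16.7 ± 6.19 FPKM in labelled d/d and 6.14 ± 2.02 FPKM in f/f libraries, and Errfi1, an inhibitor of the EGF receptor, 35.4 ± 6.40 FPKM in labelled d/d and 54.0 ± 3.66 FPKM in f/f libraries (SD, n = 3 each; limma adjusted p = 0.0668 and 0.0711). Egr2 and Egr4 were listed at 0 in all 6 libraries.

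Partners that can pair with AP-1 proteins gave 0 limma calls of 11 tested (median log2 difference 0.07), with 2 higher at an unadjusted p under 0.05, against 13.1% of all tested genes. The small MAF genes Maff and Mafk averaged 5.37 ± 1.89 and 12.3 ± 0.294 FPKM in labelled d/d, against 1.98 ± 0.543 and 9.59 ± 0.554 FPKM in f/f libraries (SD, n = 3 each; limma adjusted p = 0.0743 and 0.139).

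Feedback inhibitors of MAP kinase signalling gave 0 limma calls of 14 tested (median 0.29, against 0.02 over all tested genes), with 4 higher at an unadjusted p under 0.05, against 13.1% of all tested genes. Dusp4 and Dusp6, phosphatases of the same family as Dusp1, averaged 3.86 ± 3.02 and 27.5 ± 6.36 FPKM in labelled d/d, against 0.530 ± 0.148 and 15.9 ± 3.43 FPKM in f/f libraries (SD, n = 3 each; limma adjusted p = 0.0859 and 0.0963). Spred2, which restrains RAF activation, averaged 15.4 ± 3.81 FPKM in labelled d/d and 9.47 ± 1.02 FPKM in f/f libraries (SD, n = 3 each; limma adjusted p = 0.124). In each of these 3 genes, and in 5 of the 14, all labelled d/d libraries lay above all f/f libraries, as in 18.1% of all tested genes.

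Upstream kinases and factors gave 2 higher and 1 lower of 27 tested (median 0.08). Rps6ka1, a kinase that ERK activates, rose to 28.3, 39.0 and 45.2 FPKM in d/d replicates 1, 2 and 3, against 15.3, 14.8 and 15.2 FPKM in f/f libraries (log2 difference 1.23, SE 0.19, limma adjusted p = 0.0227). Of the p38 kinases, Mapk13 rose by 2.22 on the log2 scale to 66.5 ± 37.6 FPKM, against 12.3 ± 1.79 FPKM in f/f libraries, and Mapk11 fell by 0.97 to 9.43 ± 1.04 FPKM, against 19.6 ± 4.10 FPKM in f/f libraries (SD, n = 3 each; limma adjusted p = 0.0258 and 0.0370). Map2k3, Rps6ka3 and Mrtfa had log2 differences of 0.45, 0.67 and 0.47 that did not pass (limma adjusted p = 0.0733, 0.0733 and 0.0921).

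Genes known as AP-1 targets gave 1 higher and 1 lower of 16 tested (median 0.73, against 0.02 over all tested genes). Relative to the f/f means, their median was 0.29, 1.37 and 0.50 on the log2 scale in d/d replicates 1, 2 and 3. Of the 16, 9 were highest in d/d replicate 2, against 21.1% of all tested genes. Spp1, the secreted phosphoprotein osteopontin, rose to 113, 381 and 198 FPKM in d/d replicates 1, 2 and 3, against 16.2, 9.26 and 29.5 FPKM in f/f libraries (log2 difference 3.55, SE 0.55, limma adjusted p = 0.0233), and its highest value stood in d/d replicate 2. Areg, an EGF family ligand, fell by 3.15 on the log2 scale to 0.448 ± 0.357 FPKM, against 12.4 ± 6.35 FPKM in f/f libraries (SD, n = 3 each; limma adjusted p = 0.0118). Hbegf, Ccnd1 and Plau, a growth factor, a cyclin and a protease gene, had log2 differences of 0.76, 0.71 and 1.66 that did not pass (limma adjusted p = 0.0842, 0.104 and 0.141). Over the 5 lists, 8 of 100 tested genes were called, against 7.3% of all 12979 tested genes. Without f/f replicate 1, 2 or 3, 0, 0 and 1 of the 100 were called, against 0, 30 and 111 of all 12979. Without d/d replicate 2, 13 of the 100 were called, against 1367 of all 12979.

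**Figure D5:**
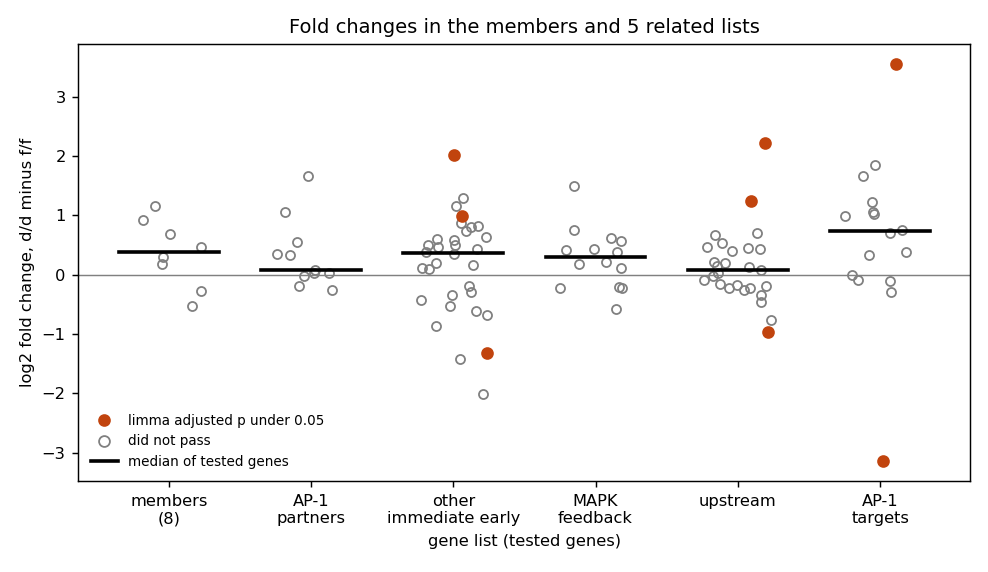
Log2 difference (labelled d/d minus f/f) of every tested gene in the AP-1 and immediate early set and in 5 related lists (points, filled where the limma adjusted p is under 0.05, black lines medians). The 8 filled points are Cebpb, Zfp36l2, Mapk13, Rps6ka1 and Spp1 above 0 and Myc, Mapk11 and Areg under it, with none in the AP-1 and immediate early set.

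Genes were also ranked by how closely their 6 values, each relative to its own f/f mean, followed Fos or Jun, as the root mean square difference over the 6 libraries among 12542 genes. The 5 nearest to Fos were Cd300lg, Pard6g, Sbsn, Sncaip and Lrrn4cl, at 0.11 to 0.18 on the log2 scale. The nearest, Cd300lg, was at 2.33, 6.99 and 3.16 FPKM in labelled d/d and 1.60, 2.29 and 2.48 FPKM in f/f libraries, and its libraries rank in the same order as those of Fos. Among the 5 nearest to Jun were Ifnlr1, Ctbp2, Oas1g and Zbtb12, at 0.09 to 0.11. Fos and Jun differed from each other by 0.64, so they were not close in pattern. Of the other tested members Fosl2 was the nearest to both, at 0.56 from Fos and 0.60 from Jun. It was close to neither, at rank 2497 from Fos and rank 7912 from Jun among the 12542 genes.

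The transcripts share a simple structure. Jun, Junb and Jund have 1 exon each, which 2.36% of the tested genes have, and the other 7 have 2 to 4 exons in their longest coding transcript (GENCODE M21). GGACT, a frequent form of the sequence that the METTL3 complex methylates, was counted on the transcript strand. It occurred 7 times in Jun, 4 in Jund, 4 in Dusp1, 4 in Fos and 3 in Junb, or 2.2, 2.40, 2.01, 1.90 and 1.66 per kilobase, against a median of 1.06 over 12799 tested genes with a coding transcript. Fosl1 had 0, and 8 of the 10 lay above that median. Fosb, Fosl2, Egr1 and Atf3 had 1.3, 1.2, 1.1 and 1.0 per kilobase. A match does not show that a site is methylated.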

How the data were processed

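RNA of whole uterus was extracted with TRIzol and made into libraries with an Illumina TruSeq RNA kit, per the labels' protocols. The authors deposited 1 table per library with 1 value per gene, taken here as FPKM. The unit was inferred, since the file headers name none. HISAT2 2.2.1 and Cufflinks 2.2.1 and the builds mm9 and mm10 are listed per the submitters' processing notes. No source used here gives the annotation, the options or whether strand was used. Cufflinks splits fragments shared by similar genes, and a 0 can be a failed estimate.

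The genes and lists were chosen with earlier results of these data known. Of rows sharing a symbol, the one with the highest mean was kept (36 removed). Genes at 1 FPKM or more in at least 3 of 6 libraries (12979) were tested with limma 3.58.1 (R 4.3.3) on log2(FPKM + 1) values (genotype only, intensity trend, two-sided, Benjamini-Hochberg over all genes, called at 0.05). Exact permutation tests were two-sided (scipy 1.17.1), with 20 possible arrangements and a smallest p of 0.1. Samples were grouped by title, and no read numbers are known, so no counting interval can be given. Named were the 10 genes, Mettl3, up to 8 called and 3 further genes of each list by p, and the 5 genes nearest to Fos and to Jun; exceptions are stated, and some genes under this rule are not reported here. On simulated data with 200 of 12979 genes changed, 46.9%, 79.7% and 92.6% of changes of 1, 2 and 3 on the log2 scale were called, and 17.8% of calls were false. The 13 alternatives were another pseudocount (0.1), no filter, 2 scalings, 1 variance per genotype, no trend, a replicate block and each library left out. Gene positions are from GENCODE M21 (GRCm38), matched by gene ID.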

Additional observations from a re-analysis of the deposited data

How the results depend on the processing

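With 3 libraries per genotype, the calls depended on which libraries were kept. Of the AP-1 and immediate early genes, 0 were called higher in all but 1 of the 13 alternatives, the exception being Fosl2 without d/d replicate 1, so with 1 library left out the number ranged from 0 to 1. It was 0 called lower in all 13. With 1 library left out, the log2 difference ranged from 0.66 to 1.19 for Fosl2, from -0.46 to 0.01 (0.012 without f/f replicate 3) for Fosb, from -0.30 to 1.08 for Atf3, from -1.03 to 0.18 for Egr1 and from -0.53 to 0.59 for Dusp1 (-0.03 without f/f replicate 3). It ranged from 0.32 to 0.90 for Fos, from 0.25 to 0.63 for Jun and from 0.86 to 1.47 for Junb, which kept their sign in all 13. The cause of these changes was not tested beyond naming the library. The number of genes called over all genes ranged from 0 to 1367 with 1 library left out, against 947, and at an unadjusted p under 0.05 it was 2292 without f/f replicate 1, where 0 were called. The number in the 5 other lists ranged from 0 to 13 with 1 library left out, against 8. With no filter on low values it was 5 of 107, where 683 of all 17739 genes were called. The correlation of same-numbered deviations was -0.02, 0.02 and -0.02, against -0.14 to 0.12 for differently numbered libraries. No pairing by replicate number was seen, but with 3 libraries per genotype these values cannot exclude it. With the replicate block, 100 genes were called over all genes, 0 of 100 in the 5 other lists and 0 of 8 AP-1 and immediate early genes. At an unadjusted p under 0.05 these numbers were 3056 of 12979, 31 of 100 and 3 of 8. The block leaves fewer residual degrees of freedom. Without read numbers, the precision of genes near 1 FPKM, such as Fosb, cannot be stated.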

Other observations

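A few genes of the related lists stood out in 1 library or in several, and are given as values, chosen after their values were seen. Klf4, an epithelial Krüppel-like factor of the immediate early list, was at 15.4, 14.3 and 100.5 FPKM in d/d replicates 1, 2 and 3, against 11.0, 11.8 and 13.7 FPKM in f/f libraries. All labelled d/d libraries lay above all f/f libraries, as in 18.1% of all tested genes, and Klf4 did not pass (limma adjusted p = 0.349). The large value stood in d/d replicate 3, the library with the highest sum of epithelial markers (4178 FPKM). In d/d replicate 1 that sum was 2941 FPKM, against 1291 to 1319 FPKM in f/f libraries, and Klf4 was at 15.4 FPKM. Any tie of Klf4 to the epithelial markers was not tested. Ccn2, a secreted matrix protein gene, was at 46.1, 14.0 and 5.29 FPKM in labelled d/d and 61.0, 89.6 and 50.0 FPKM in f/f libraries (log2 difference -2.00, limma adjusted p = 0.134). Its relative Ccn1 did not share that direction, with values relative to the f/f mean of 0.12, 1.04 and 1.45 on the log2 scale in d/d replicates 1, 2 and 3. Il6, a cytokine gene often named as an AP-1 target, was at 0.135, 0.433 and 0.0812 FPKM in labelled d/d and 1.36, 0.531 and 1.02 FPKM in f/f libraries, under the level for testing.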
